A study of Sus scrofa with 67 samples.

Results

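These 113 genes were higher in the endometrium and the ovary on day 9 of the pig oestrous cycle, when the ovary carries functional corpora lutea, than on day 0, the onset of oestrous behaviour, while their ratio of day 9 to day 0 in the oviduct stayed between a lower and an upper limit. They were chosen from a table of counts per gene by one rule. Counts were scaled to the library total as CPM, 1 was added to the mean CPM of each tissue and day, and R was the ratio of day 9 to day 0. Members had R of at least 2 in the endometrium and in the ovary and R above 0.5 and under 2 in the oviduct. Of 25322 genes in the table, 1068 (4.22%) had R of at least 2 in the endometrium and 935 (3.69%) in the ovary, 147 had it in both, and 113 of those 147 met the limits for the oviduct. The other 34 were 28 genes with R of at least 2 in all 3 tissues and 6 with R of 0.5 or less in the oviduct. Since days 9 and 0 chose the members, values on these days are given as a description and were not tested. At the limits, COL4A5 was just inside with R of 2.01 in the endometrium and NPY2R just outside with 1.98, and in the ovary DAAM1 was just inside with 2.01. In the oviduct, STEAP4 with R of 1.96 and CITED1 with R of 0.506 were the members closest to the limits, and EPHX1 with 2.04 and CYP51A1 with 0.494 were the nearest genes outside them. A symbol could be paired with 80 of the 113 identifiers.

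The tissues came from untreated crossbred gilts (Landrace × Yorkshire, 6–8 months old) that had gone through at least 2 normal cycles, and were taken at hysterectomy every 3 days from day 0 to day 18. The endometrium was freed of the muscle layer, the oviduct was the ampulla region, and 1 whole ovary of an animal was taken, so an ovary library holds whatever follicles and corpora lutea that ovary carried. Poly-A RNA of each tissue was sequenced, and 66 of the 67 libraries listed in the labels were analysed here, 22 of each tissue. There were 3 libraries of a tissue and day, except 2 for the ovary on day 3 and the oviduct on day 6, and 4 for the endometrium on day 15 and the ovary and oviduct on days 12 and 15. By the methods of the study, the 3 tissues came from 3 gilts on each day, fewer than the libraries in the groups of 4. Whether these groups repeat an animal or hold a further one is not given in the sources used here. Nor is it given which libraries share a gilt. Libraries of a group were treated as separate, so p-values measure the spread between libraries, and those that use a group of 4 may be too small.

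In the pig, the follicle that ovulates becomes a corpus luteum, which makes progesterone from cholesterol through the middle of the cycle and regresses before the next oestrus. Progesterone in turn acts on the endometrium, whose glands become secretory in the luteal phase. Cholesterol is taken up by a cell with lipoproteins or is built from acetyl-CoA through the mevalonate pathway, whose enzymes are switched on together by the SREBP transcription factors when sterols in the cell are low.

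Library totals were 8962103 to 13442083 counts, so that 3 counts, taken as the floor of detection, were 0.223 to 0.335 CPM. Most defining markers were highest in the labelled tissue: FSHR and CYP11A1 had their highest median in ovary libraries, OVGP1 and FOXJ1 in oviduct libraries, and HOXA10 and HOXA11, genes of the uterus, in endometrium libraries. GDF9, listed as an ovary marker, was an exception, with a median of 18.1 CPM in ovary, 34.4 in endometrium and 40.9 in oviduct libraries. HOXA11 was at 0 in 20 of 22 ovary libraries, but at 18.2 CPM in ovary library 1 of day 15, which also held 245 CPM of the ciliated cell gene FOXJ1, and it was at 8.95 CPM in oviduct library 2 of day 18. Some libraries stood apart for the members. Ovary library 1 of day 12 had a median over members of 3.83 on the log2(CPM + 1) scale, against 5.83, 5.89 and 5.95 in the other 3 libraries of that day. Library 2 of day 15 had the highest median of its group in the endometrium (4.59 against 3.72 to 4.06) and in the ovary (5.01 against 3.81 to 4.68) and the lowest in the oviduct (3.36 against 3.78 to 3.98). Counts of members called within a tissue are given with and without ovary library 1 of day 12 and library 2 of day 15. These libraries were singled out by their levels of the members. Fits without them are therefore a description and give no independent support. In these bulk samples, fewer cells of a type and less RNA per cell cannot be told apart. TMM scaling, used in the tests, moved the log2 difference of day 9 and day 0 relative to scaling by library totals. The shift was 0.10 for endometrium, 0.29 for ovary and -0.28 for oviduct, and under TMM the rule took 174 genes, which included 110 of the 113.

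Over the cycle, the summed mean CPM of the members was high on different days in the endometrium and the ovary. From day 0 to day 18 the endometrial sums were 4095, 4938, 13153, 15605, 10112, 7048 and 4812. In the ovary the corresponding sums were 4885, 22249, 23798, 24999, 21645, 8665 and 5665. The oviduct stayed between 4377 on day 15 and 5124 on day 6. The ovary was near its highest sum by day 3, a day on which the endometrium was still close to its day 0 sum. Counted by gene, the highest daily mean in the endometrium fell on day 6 for 31 members, day 9 for 57, day 12 for 22 and day 15 for 3. In the ovary it fell on day 3 for 21 members, day 6 for 18, day 9 for 50, day 12 for 23 and day 15 for 1. On day 9 the tissue with the highest mean was the ovary for 66 members, the endometrium for 46 and the oviduct for 1, whereas on day 0 it was the ovary for 41, the endometrium for 37 and the oviduct for 35.

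**Figure D1:**
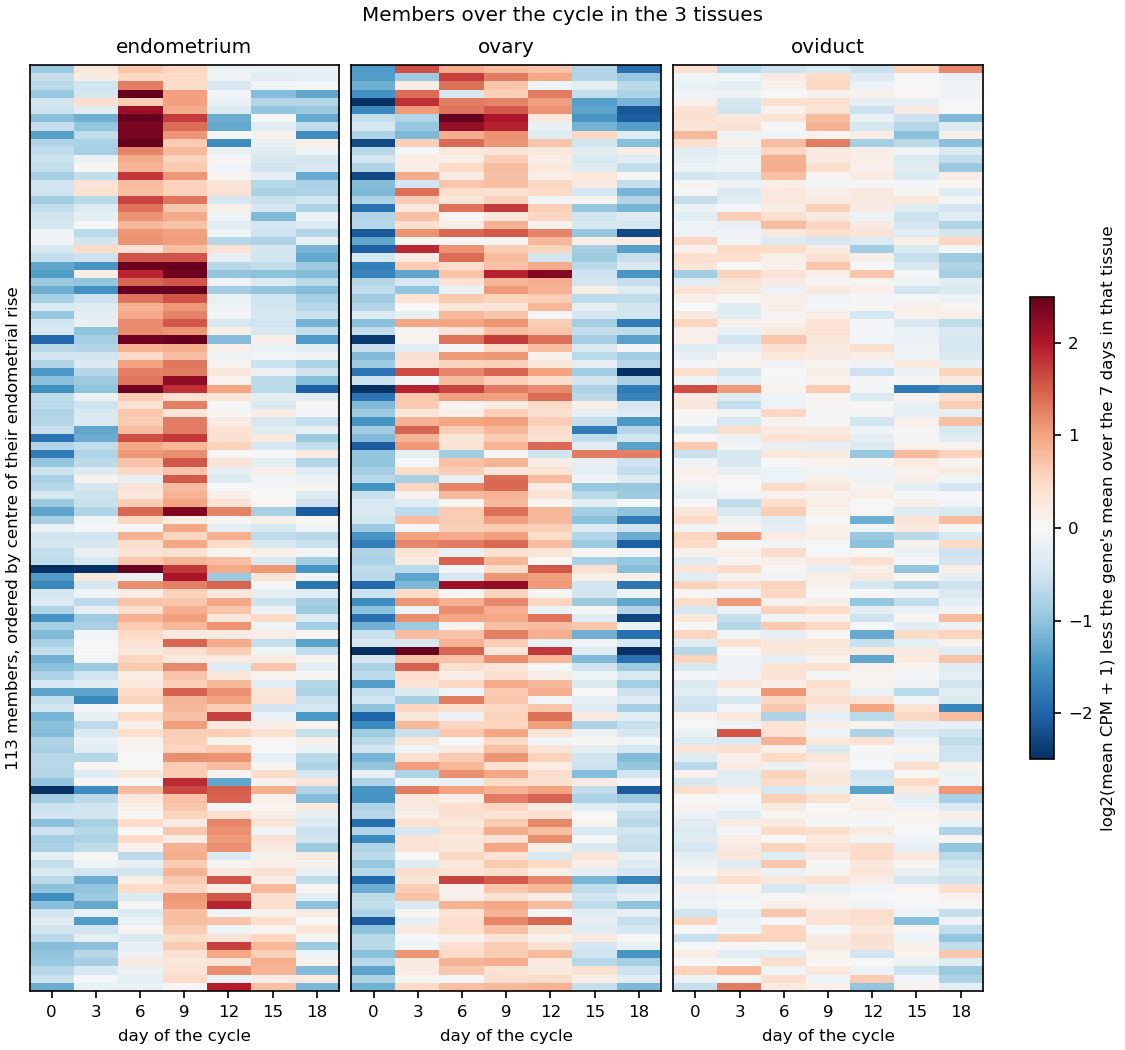
Mean level of each of the 113 members (rows) on each day (columns) in the endometrium, ovary and oviduct, as log2(mean CPM + 1) less the mean of that gene over the 7 days in that tissue (red, above; blue, below). The ovary is red from day 3 to day 12 and the endometrium from day 6 with fewer members high on day 12. The oviduct changes less, with a median over members of 13.5 to 18.6 CPM and the highest daily mean on day 6 for 38 members.

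Days that the rule did not use were then compared, to ask whether the members also followed the luteal phase there. Tests were edgeR quasi-likelihood fits over all genes of a tissue, with adjusted p under 0.05 as a call. In the endometrium, 62 of 112 members tested were called higher on day 6 than on day 3 and 0 lower, where 8.86% of all tested genes were called higher and 10% lower. The median log2 fold change was 1.37 over members and -0.01 over all genes. Against day 18, 42 members were called higher on day 12 and 1 lower (background 10.8% and 9.43%), with a median log2 fold change of 0.75 over members and -0.03 over all genes. Without endometrium library 2 or 3 of day 18, 24 or 21 members were called in all, and 28 without library 2 of day 12. These fits called 788 to 1237 of all genes tested higher and 841 to 970 lower. Called higher in both comparisons were 24 members (background 3.17%), and in at least 1 of them 80 (background 16.5%). Between days 12 and 15, 4 members were called higher and 0 lower (background 2.27% and 3.9%), which became 40 higher and 3 lower without endometrium library 2 of day 15 (background 14.8% and 13.6%) and 0 to 2 in all without any other library of these days. Those last fits called 0 to 121 of all genes tested higher and 0 to 103 lower. Leukocyte markers were lower on day 6 than on day 3 for 6 of 9 genes (summed 91.7 to 138 against 208 to 426 CPM) and endothelial markers for 2 of 4 (178 to 209 against 450.1 to 541 CPM), and endothelial markers were also lower on day 12 than on day 18 for 2 of 4 (223 to 500.1 against 476 to 596 CPM). Their part in these counts was not tested.

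In the ovary, all but 2 of 113 members had a higher level on day 12 than on day 18, and 77 had an unadjusted p under 0.05. Adjusted over all genes, 14 were called higher and 0 lower, where 2.31% of all genes were called higher and 0.62% lower. The median log2 fold change was 1.62 over members and -0.03 over all genes. Without ovary library 1 of day 12 the fit called 79 members higher and 0 lower (background 12.1% and 9.85%), and the 14 were among the 79. That library was singled out by its low level of the members, so the larger count is not independent of that choice. Leaving out any other library of the 2 days gave 0 calls of members. Those fits called 0 of all genes tested in either direction, so their 0 is also the background. Between days 12 and 15, edgeR called 0 members (68 with an unadjusted p under 0.05), against a background of 0.00639% higher and 0.0192% lower. DESeq2 called 34 higher and 1 lower (background 4.46% and 4.34%). Without ovary library 1 of day 12 edgeR called 61 higher (background 9.55% higher and 8.04% lower), and without ovary library 2 of day 15 it called 26 higher and 1 lower (background 3.72% and 3.81%). It called 0 members without any other single library of these days, ovary library 1 of day 15 among them. Of all genes tested, those fits called 0 or 1 in each direction. Between days 6 and 3, 0 members were called by edgeR (18 with an unadjusted p under 0.05) against a background of 0.0% in both directions. DESeq2 called 2 higher and 0 lower (background 0.467% and 0.0384%). Ovary library 1 of day 12 also had the lowest sum of ovary markers of its day, 2937 against 5488 to 11198 CPM, and the highest of smooth muscle markers, 1197 against 179 to 205 CPM. On day 15 smooth muscle markers summed to 10664 CPM in ovary library 1, 4245.5 in library 2, 593 in library 3 and 371 in library 4. Leukocyte markers summed to 76.8 to 161 CPM on day 12 and 129 to 1484 on day 18, with 0 of them called. The part of these markers in the members' levels was not tested.

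In the oviduct, which the rule required to be steady only between days 0 and 9, the members had a median change near 0 in the fits, which use TMM scaling. By library totals, the median ratio of day 6 to day 3 was 1.18 over members and 1.09 over all genes with a count. On day 12 against day 18, 9 of 110 members tested were called higher and 15 lower, where 8.98% of all genes were called higher and 13.4% lower, and the median log2 fold change was 0.06. The shares of members called were near the background in both directions. Calls in all went from 24 to 15 without oviduct library 2 of day 18 and to 16 without library 2 of day 12. These fits called 412 and 820 of all genes tested higher and 602 and 1299 lower. Between days 6 and 3, edgeR called 0 members (8 with an unadjusted p under 0.05, background 0.0%), and DESeq2 called 0 (background 0.147% higher and 0.243% lower). Between days 12 and 15, edgeR called 0 (23 with an unadjusted p under 0.05, background 0.00638% in each direction) and DESeq2 called 1 higher and 7 lower (background 0.313% and 1.14%). Without oviduct library 2 of day 15, 0 were called higher and 10 lower on day 12 than on day 15 (background 1.82% and 3.62%).

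**Figure D2:**
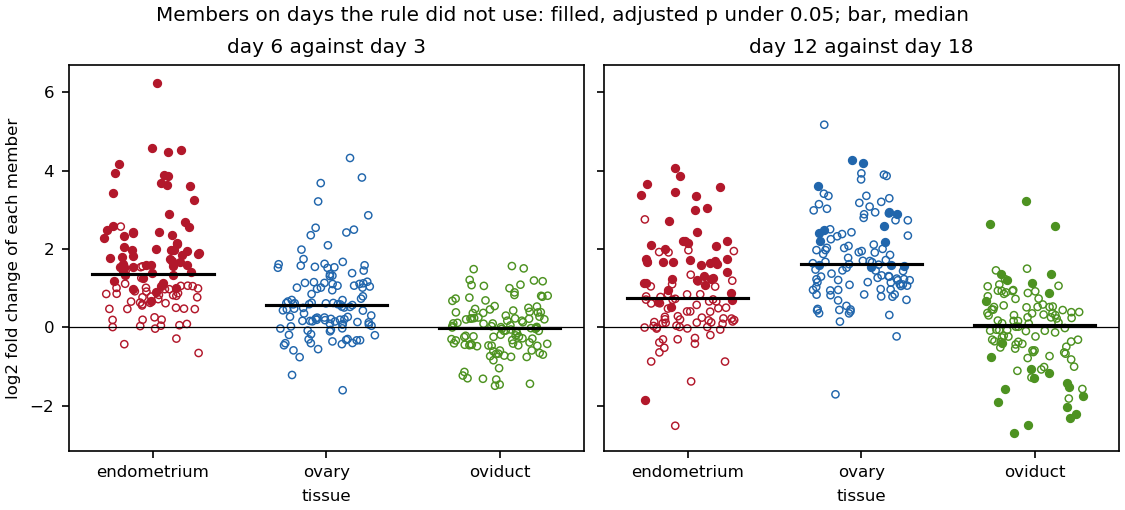
Fitted log2 fold change of each tested member in each tissue for day 6 against day 3 (left) and day 12 against day 18 (right). Filled points passed an adjusted p under 0.05 and the bar is the median of the members: 1.37, 0.57 and -0.01 for endometrium, ovary and oviduct on the left, and 0.75, 1.62 and 0.06 on the right.

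The tissues were then compared directly, by the difference of their day differences in 1 fit of all 21 groups. For day 12 against day 18, 41 members were higher in the ovary than in the oviduct by this measure and 0 lower (background 11.1% and 9.43%). For the same days, 13 were higher in the endometrium than in the oviduct and 0 lower (background 5.49% and 3.87%). Between the endometrium and the ovary, 10 members had a lower difference in the endometrium and 0 a higher one (background 5.22% and 6.25%). For day 6 against day 3, 15 members had a higher difference in the endometrium than in the oviduct and 0 a lower one (background 2.53% and 1.74%). A higher difference in the endometrium than in the ovary was called for 10, and a lower one for 0 (background 1.62% and 2.22%). Between the ovary and the oviduct 0 differed by edgeR (17 at an unadjusted p under 0.05, background 0.00591% in each direction). This fit shares 1 estimate of the spread over tissues. The number of all genes called also moved with the setting. With only the 4 groups of each comparison, the 41 became 15, where 430 of 15502 genes tested were called higher. The 13 became 27, where 781 of 15338 were called higher. Of the 10 lower in the endometrium than in the ovary 0 were left, where 108 of 15412 were called lower. For day 6 against day 3 the same change of fit took the 15 to 33, where 755 of 15585 genes tested were called higher. It took the 10 to 20 higher and 1 lower, where 574 of 15464 were called higher and 972 lower. Leaving out ovary library 1 of day 12 gave 63 in place of the 41 and 29 in place of the 10. Of 16923 genes tested, 2303 and 1595 were then called in these directions. Leaving out ovary library 3 of day 18 gave 27 and 3, where 1339 and 483 of 16927 genes tested were called. The 10 went down to 3 without endometrium library 1 of day 12 also (595 of 16922 genes tested called lower). They went up to 24 without ovary library 1 of day 18 (1160 of 16913 called lower). The 15 of day 6 against day 3 went down to 6 or 5 without oviduct library 2 or 3 of day 6. In these fits 155 of 17325 and 110 of 17330 genes tested were called higher. The 10 of these days went to 3 without ovary library 3 of day 3, where 110 of 17328 were called higher.

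**Figure D3:**
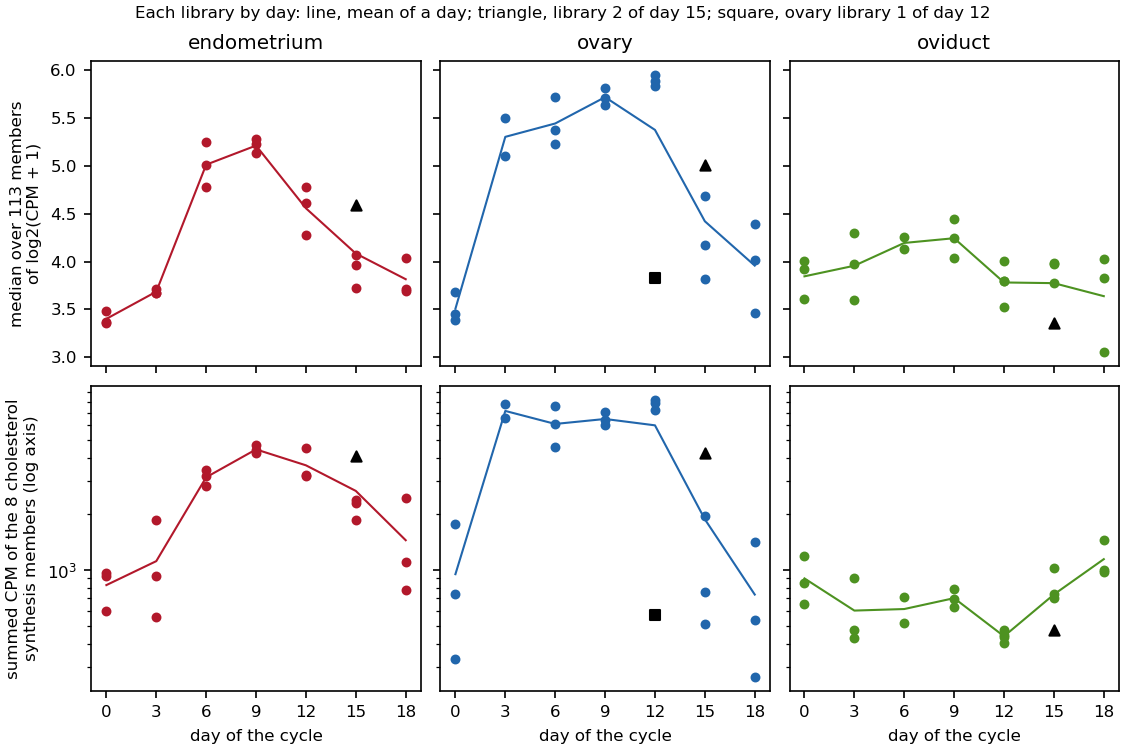
Each library by day in the endometrium, ovary and oviduct: upper row, median over the 113 members of log2(CPM + 1); lower row, summed CPM of the 8 cholesterol synthesis members on a log axis. Lines join day means, the triangle is library 2 of day 15 and the square is ovary library 1 of day 12, which at 3.83 and 570.5 CPM lies far below the other 3 libraries of its day.

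Of 15 gene lists, cholesterol synthesis held the most members: 8 of its 19 genes in the table. Steroid synthesis, lipid storage, ion transport and nutrient transport held 1 each, and the other 10 lists held 0. Members of the list act early and late in the pathway. ACAT2 (ENSSSCG00000004049) joins 2 acetyl-CoA and MVK (ENSSSCG00000009931) phosphorylates mevalonate. FDPS (ENSSSCG00000006512) makes farnesyl diphosphate and FDFT1 (ENSSSCG00000026044) joins 2 of these into squalene. MSMO1 (ENSSSCG00000008857) and SC5D (ENSSSCG00000028517) act on the sterol ring in the last steps. The summed level of all 8 members per library was 601, 954 and 922 CPM on day 0 and 4262, 4381 and 4679.8 CPM on day 9 in the endometrium. In the ovary it was 331, 737 and 1768 CPM on day 0 and 5994, 7038 and 6396 CPM on day 9. In the oviduct it was 653, 1186 and 851 CPM on day 0 and 788, 628 and 691 CPM on day 9. The ovary libraries of day 0 were unlike in their marker sums. Ovary markers were at 707, 8312 and 13643 CPM, leukocyte markers at 1684, 1281 and 105 CPM and oviduct markers at 571, 2010 and 819 CPM. On day 9 these sums were 4423 to 4610, 69.6 to 130 and 48.3 to 78.1 CPM. Their part in the ovarian rise was not tested. The days the rule did not use follow gene by gene.

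MSMO1 in the ovary was already at 1276 and 1517 CPM on day 3, against 42.5, 148 and 317 CPM on day 0. On day 12 it stood at 74.7, 2156, 2338 and 1726 CPM. It stood at 95, 1210.3, 80.8 and 623 CPM 3 days later and at 291, 61.3 and 30.7 CPM on day 18. Library 1 of day 12 lay within the range of day 18 and the other 3 far above it. The fold on day 12 against day 18 was large but did not pass with all libraries (log2 fold change 3.87 ± 1.22 (SE), adjusted p = 0.074). It passed without library 1 of day 12 (log2 fold change 4.27 ± 1.07 (SE), adjusted p = 0.0109). In the endometrium the gene rose between day 3, with 68.3, 47.1 and 170.3 CPM, and day 6, with 378, 414 and 204 CPM (log2 fold change 1.98 ± 0.54 (SE), adjusted p = 0.0149). The libraries of these days did not overlap, but the call was lost without library 1 or 2 of day 3 or library 2 of day 6. By day 12 the endometrium held 147, 217 and 276 CPM, which overlapped with 268, 93.9 and 64.6 CPM on day 18 (log2 fold change 0.61 ± 0.52 (SE), adjusted p = 0.422).

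FDPS had the largest R of the 8 in the endometrium, 18.8. Its endometrial level was 117, 52.9 and 434 CPM on day 3 and 874, 951 and 1187 CPM on day 6. Later it was 1843, 1502 and 1704 CPM on day 12 and 837, 149 and 85.6 CPM on day 18. Its libraries of day 12 overlapped those of day 9, with 1704, 1502 and 2423 CPM. It rose from day 3 to day 6 (log2 fold change 2.50 ± 0.74 (SE), adjusted p = 0.0235) and was higher on day 12 than on day 18 (log2 fold change 2.22 ± 0.73 (SE), adjusted p = 0.0388). In both the day 3 and the day 18 group 1 library, with 434 and 837 CPM, was far above the other 2. The call for day 12 against day 18 was lost without any 1 library but library 1 of day 18, and that for day 6 against day 3 without library 1 or 2 of day 3 or library 3 of day 6. On day 15 the second library was at 1962 CPM and the others at 730.2 to 919.9 CPM. In the ovary the level on day 12 was 90.2, 1411, 1279 and 1236 CPM against 246, 64.7 and 39 CPM on day 18 (log2 fold change 3.36 ± 0.98 (SE), adjusted p = 0.0585; log2 fold change 3.75 ± 0.83 (SE), adjusted p = 0.00515 without library 1 of day 12).

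Of the 8, FDFT1 alone was called higher on day 12 than on day 18 in both tissues with all libraries. In the endometrium it was 496, 448 and 963 CPM on day 12 and 438, 264 and 194 CPM on day 18 (log2 fold change 1.14 ± 0.37 (SE), adjusted p = 0.0372). Its ovarian level was 96.1, 532, 622 and 449 CPM and 119, 91.8 and 52.5 CPM (log2 fold change 2.59 ± 0.66 (SE), adjusted p = 0.047). The endometrial call was lost without library 3 of day 12 or library 2 or 3 of day 18, and the ovarian one without any library but library 1 of day 12. SC5D also rose in the endometrium from day 3 to day 6 (log2 fold change 1.68 ± 0.45 (SE), adjusted p = 0.0143), and the call was lost without library 1 or 2 of day 3. ACAT2 and MVK did not pass in the endometrium for either pair of days, with log2 fold changes of 0.11 to 1.01. In the ovary all 8 had a positive log2 fold change on day 12 against day 18, among them 1.46 for SC5D and 3.87 for MSMO1. The fit of all libraries called 1 (background 2.31%). Without library 1 of day 12, 7 were called, SC5D being the exception (background 12.1%).

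In the oviduct all 8 went the other way: each was lower on day 12 than on day 18 and each passed the test. The background of genes called lower was 13.4%. FDPS was 32.9, 39.4, 48.5 and 39.9 CPM on day 12 and 186, 227 and 250.2 CPM on day 18 (log2 fold change -2.70 ± 0.46 (SE), adjusted p = 0.0031). MSMO1 was 57.1, 66.6, 79.8 and 66.8 CPM and 140.1, 176 and 192 CPM (log2 fold change -1.57 ± 0.22 (SE), adjusted p = 0.00239). ACAT2 was 15.5, 16.6, 19.8 and 17.3 CPM and 61.5, 43.6 and 78.5 CPM (log2 fold change -2.03 ± 0.38 (SE), adjusted p = 0.0039). In each of these 3 genes every library of day 12 was below every library of day 18. The summed level of the 8 was 404, 432, 471 and 445 CPM on day 12 and 967, 998 and 1452 CPM on day 18, without overlap. FDFT1, MVK and SC5D had log2 fold changes of -1.41, -1.06 and -0.76 on day 12 against day 18, with adjusted p of 0.00239, 0.00591 and 0.00996. Leaving out each library in turn kept 7 or 8 of the 8 calls, SC5D being lost without library 2 of day 18. Between days 0 and 9, R in the oviduct was between 0.595 for ACAT2 and 0.934 for FDFT1, all under 1 and inside the limits of the rule. On day 12 against day 15 the 8 had log2 fold changes of -1.67 to -0.22, lower on day 12, with 0 called (background 0.00638% lower). Without oviduct library 2 of day 15, 4 were called lower on day 12 (background 3.62%).

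Beside these values, some marker lists differed between day 12 and day 18 in the oviduct libraries. Smooth muscle markers summed to 1236 to 6821 CPM on day 12 and 7252 to 15569 CPM on day 18, with 3 of 6 called lower on day 12. Endometrium markers, 2 of 4 tested called lower on day 12, summed to 501 to 719 and 704 to 1148 CPM, and 1 of 4 endothelial markers was called lower (177 to 246 and 187 to 257 CPM). Of 5 oviduct markers, led by OVGP1, 0 were called, and they summed to 5252 to 31241 and 11891 to 64725 CPM. Ovary markers, 3 of 5 tested called higher on day 12, summed to 74.1 to 179 and 28.7 to 54.1 CPM in the oviduct, against 2937 to 11198 CPM in the ovary on day 12. Their part in the lower level of the cholesterol genes on day 12 was not tested. TMM scaling, used in the tests, moved day 12 against day 18 by -0.20 on the log2 scale in the oviduct relative to library totals. The CPM given here use library totals.

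The direct test compared these changes between tissues. All 8 had a higher day 12 against day 18 difference in the ovary than in the oviduct, and 8 of 8 were called (background 11.1%). The differences went from 2.15 ± 0.78 (SE), adjusted p = 0.0433 for SC5D to 5.99 ± 1.08 (SE), adjusted p = 0.000146 for FDPS. For SC5D the call was kept without ovary library 1 of day 12 or of day 18 or oviduct library 1 of day 18 and lost without any other. Between the endometrium and the oviduct 3 were called higher in the endometrium (background 5.49%). Among them were FDPS with 4.89 ± 1.07 (SE), adjusted p = 0.00285 and FDFT1 with 2.52 ± 0.64 (SE), adjusted p = 0.00879. Between the endometrium and the ovary 4 were called lower in the endometrium (background 5.22%), among them MSMO1 with -3.22, ACAT2 with -2.76 and MVK with -2.65. With only the 4 groups compared 0 were called (108 of 15412 genes tested lower). Without endometrium library 1 of day 18, 0 were called too (663 of 16926 lower). For day 6 against day 3, 0 of the 8 differed between tissues (background 0.00591% to 2.53% in a direction).

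The other 11 genes of the list were not members, some for the oviduct and some for the endometrium. HMGCS1, SQLE, CYP51A1 and INSIG1 had R of 2 or more in both the endometrium and the ovary and R of 0.375 to 0.494 in the oviduct, below the lower limit. HMGCS1, an early enzyme of the pathway, had R of 3.56, 7.34 and 0.375 in endometrium, ovary and oviduct. SQLE, the squalene epoxidase, had 4.12, 3.84 and 0.379. IDI1, LSS, NSDHL, DHCR7, SCAP and TM7SF2 had R under 2 in the endometrium, and SREBF2, the transcription factor, was under 2 in both. Over all 19 genes, 17 were called lower on day 12 than on day 18 in the oviduct and 0 higher (background 13.4% and 8.98%). The median log2 fold change was -1.49, and SCAP and TM7SF2 were the 2 not called. SQLE had the largest difference (log2 fold change -3.01 ± 0.45 (SE), adjusted p = 0.00239). In the ovary 4 were called higher and 0 lower with all libraries (IDI1, SCAP, NSDHL and FDFT1), against a background of 2.31% and 0.62%, and the median was 2.72. Without library 1 of day 12, 17 were called (background 12.1% higher). Without any other library of these days 0 were called, in fits that called 0 of all genes tested. In the endometrium 3 were called higher on day 12 than on day 18 (median 0.61, background 10.8%) and 5 on day 6 than on day 3 (median 1.01, background 8.86%), with 0 lower. The direct test of ovary against oviduct called 18 of 19 (background 11.1% higher). In the endometrium, library 3 of day 3 and library 1 of day 18 were above the other libraries of their day for these genes. Without each of them in turn 12 of 19 were called for day 6 against day 3 and 6 of 19 for day 12 against day 18. Of all genes tested, 1255 of 15561 and 1171 of 15563 were called higher in these fits. The calls went down to 1 without library 1 or 2 of day 3, and to 0 without library 3 of day 12 or library 2 or 3 of day 18. Those fits called 788 to 1360 of all genes tested higher.

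**Figure D4:**
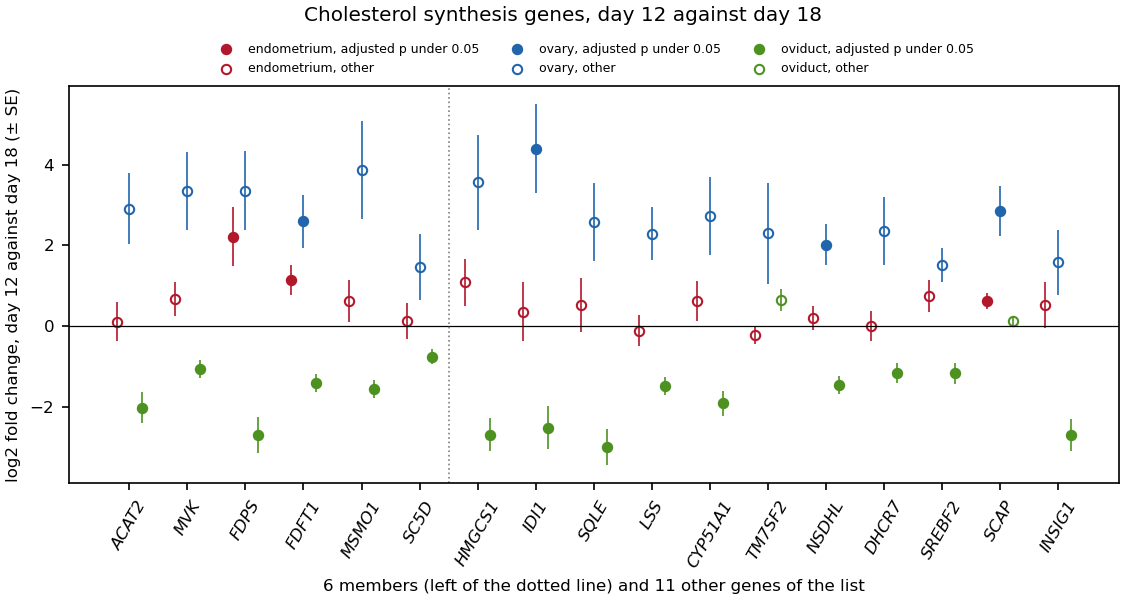
Log2 fold change (± SE) on day 12 against day 18 of cholesterol synthesis genes in the endometrium, ovary and oviduct, the members on the left of the dotted line. Filled points passed an adjusted p under 0.05; every ovary point lies above 0, and the oviduct points lie below 0 but for SCAP and TM7SF2.

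Members from the other lists included genes of lipid synthesis and transport. FASN (ENSSSCG00000029944), fatty acid synthase, is also a target of SREBP factors and did not pass the test in the oviduct. It was 165, 220.4, 248 and 192 CPM there on day 12 and 198, 28.8 and 198 CPM on day 18 (log2 fold change 0.39 ± 0.42 (SE), adjusted p = 0.516), while in the endometrium it was higher on day 12, 185, 205 and 294 against 100.4, 131 and 76.9 CPM (log2 fold change 1.22 ± 0.35 (SE), adjusted p = 0.0223). That call was lost without library 3 of day 12 or of day 18.

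ATP1B1 (ENSSSCG00000006296), the beta subunit of the sodium pump, was in the oviduct at 471 to 696 CPM over all days, above the ovary on every day. In the ovary it was 78.2, 265, 226 and 375 CPM on day 12 and 137, 94.6 and 90.8 CPM on day 18 (log2 fold change 1.44 ± 0.42 (SE), adjusted p = 0.059), and the difference from the oviduct passed the test (1.71 ± 0.53 (SE), adjusted p = 0.0166). SLC7A2 (ENSSSCG00000006987), a transporter of arginine and other cationic amino acids, had its highest daily mean in the endometrium on day 12, with 14.9, 14.1 and 9.98 CPM, against 1.81, 1.23 and 0.871 CPM on day 18 (log2 fold change 3.35 ± 0.67 (SE), adjusted p = 0.00438). It was also called higher in the oviduct (log2 fold change 3.22 ± 0.97 (SE), adjusted p = 0.0256), where it stayed at 0.393, 1.56, 1.93 and 0.489 CPM on day 12 and 0.18, 0.0869 and 0 CPM on day 18, values that reach the floor of detection, and the call was lost without library 2 or 3 of either day.

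Of the 74 members with a symbol, at least 10 counts in every day 9 library of the endometrium and ovary and no overlap of days 9 and 0 there, the 12 with the largest smaller R of these tissues included STEAP4, CITED1, NTRK3, UNC93A, MSMO1, PAPSS2, FDPS, PANK3, MFAP3L, MME and PLA2G3. STEAP4 (ENSSSCG00000015299), a reductase of iron and copper, was at 260.4, 328 and 219.9 CPM in the endometrium on day 9 but only 22.8, 15.6 and 34.5 CPM on day 12, overlapping with 9.5, 23.6 and 34.4 CPM on day 18. It rose there from day 3 (66.2, 74.8 and 24.4 CPM) to day 6 (104, 270.4 and 181 CPM; log2 fold change 1.94 ± 0.61 (SE), adjusted p = 0.0329), a call lost without any 1 library but library 1 of day 6. In the ovary the level was 1.95, 92.7, 76.7 and 201 CPM on day 12 and 7.44, 7.75 and 3.02 CPM on day 18 (log2 fold change 4.28 ± 1.11 (SE), adjusted p = 0.0484). Library 1 of day 12 was below all of day 18 and the other 3 were above them, and leaving out any of the other libraries lost the call. The difference between these tissues passed the test (endometrium minus ovary -4.03 ± 1.08 (SE), adjusted p = 0.0121). The oviduct also had more on day 12 than on day 18, 104, 109.6, 67.5 and 75.6 against 26.7, 22.5 and 40.9 CPM (log2 fold change 1.35 ± 0.42 (SE), adjusted p = 0.0275), which was lost without library 2 of day 12 or library 1 or 2 of day 18.

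PAPSS2 (ENSSSCG00000010437), which makes the sulphate donor PAPS, was likewise high in the endometrium on day 6 and low on day 12. It was 11.5, 13 and 20.4 CPM on day 3 and 191, 286 and 236 CPM on day 6. Later it was 15.3, 47.9 and 14.9 CPM on day 12 and 37.1, 16.1 and 13.9 CPM on day 18. The step from day 3 to day 6 passed (log2 fold change 4.18 ± 0.54 (SE), adjusted p = 0.000126) and exceeded that of the ovary (4.13 ± 0.81 (SE), adjusted p = 0.00165) and of the oviduct (4.25 ± 0.87 (SE), adjusted p = 0.00191). In the ovary it was already 483 and 935 CPM on day 3 against 106, 153 and 145 CPM on day 0. UNC93A (ENSSSCG00000027404) was 10, 13.6 and 15.5 CPM in the endometrium on day 3, 256, 379 and 178 CPM on day 6 and 15.4, 8 and 14.7 CPM on day 12 (log2 fold change 4.57 ± 0.67 (SE), adjusted p = 0.000302 for day 6 against day 3).

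MME (ENSSSCG00000011723), the cell surface peptidase neprilysin, rose in the endometrium from 86.8, 72.3 and 199 CPM on day 3 to 653, 661 and 561 CPM on day 6 (log2 fold change 2.57 ± 0.50 (SE), adjusted p = 0.00186). MFAP3L (ENSSSCG00000009709) did so from 2.77, 1.56 and 3.22 to 53.8, 33.4 and 10.1 CPM (log2 fold change 3.86 ± 0.68 (SE), adjusted p = 0.000937), and in the oviduct it was at or near the floor, 0 to 0.643 CPM. Both steps exceeded those of the ovary, by 3.06 ± 0.92 (SE), adjusted p = 0.0464 for MME and 5.49 ± 1.12 (SE), adjusted p = 0.00233 for MFAP3L, the former lost without any 1 of 8 of the 11 libraries, ovary library 3 of day 3 among them. PANK3 (ENSSSCG00000017014), a kinase that starts coenzyme A synthesis, passed in neither tissue on these days, with log2 fold changes in the endometrium of 1.06 for day 6 against day 3 and in the ovary of 2.03 for day 12 against day 18.

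CITED1 (ENSSSCG00000012409), a transcriptional coactivator, was high in the ovary by day 3 and in the endometrium by day 6. In the ovary it was 2.51, 26.1 and 12 CPM on day 0 and 349 and 934 CPM on day 3. In the endometrium it was still 3.84, 3.35 and 6.13 CPM on day 3 and reached 70.1, 78.3 and 25.4 CPM on day 6 (log2 fold change 3.89 ± 0.78 (SE), adjusted p = 0.00227). The endometrial level remained 21.6, 28.2 and 11.5 CPM on day 12, above 1.07, 2.28 and 1.57 CPM on day 18 (log2 fold change 3.67 ± 0.81 (SE), adjusted p = 0.00665). In the oviduct the day 6 against day 3 difference was lower than in the endometrium (5.19 ± 1.46 (SE), adjusted p = 0.0308), a call lost without any 1 of 7 of the 11 libraries, oviduct library 2 or 3 of day 6 among them, and the levels went from 93.7, 13.2 and 55.2 CPM on day 0 to 2.16, 5.99 and 6.55 CPM on day 18.

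NTRK3 (ENSSSCG00000005106), the receptor of neurotrophin-3, was 33.3, 31.6 and 18.2 CPM in the endometrium on day 12 and 2.77, 0.877 and 2.18 CPM on day 18 (log2 fold change 3.86 ± 0.71 (SE), adjusted p = 0.0033). It also rose from day 3 to day 6 (log2 fold change 1.90 ± 0.64 (SE), adjusted p = 0.0453), a call lost without library 1 or 2 of day 3 or library 2 or 3 of day 6. The oviduct held 7.63 to 44.8 CPM over the cycle and did not pass for day 12 against day 18 (log2 fold change -0.13 ± 0.40 (SE), adjusted p = 0.842). The endometrium and the oviduct differed (3.96 ± 1.11 (SE), adjusted p = 0.0171). PLA2G3 (ENSSSCG00000010023), a secreted phospholipase A2, was 36, 122 and 69.2 CPM on day 12 and 3.84, 12.1 and 6.88 CPM on day 18 in the endometrium (log2 fold change 3.39 ± 1.02 (SE), adjusted p = 0.0271, lost without library 2 of day 12 or any library of day 18). It had an opposite sign in the oviduct, where it did not pass (log2 fold change -1.82 ± 0.65 (SE), adjusted p = 0.0522). The difference of the 2 tissues was 5.17 ± 1.42 (SE), adjusted p = 0.0153.

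**Figure D5:**
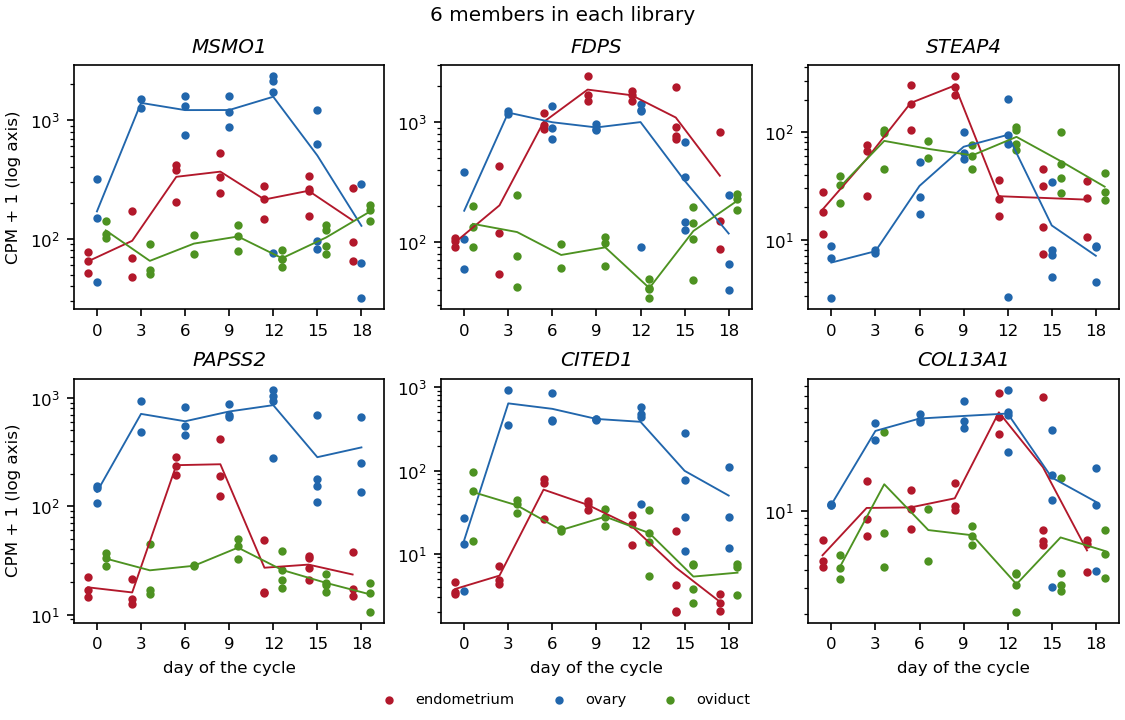
MSMO1, FDPS, STEAP4, PAPSS2, CITED1 and COL13A1 in each library (points, CPM + 1 on a log axis) by day in the endometrium, ovary and oviduct, with lines through the day means. STEAP4 and PAPSS2 are back near their starting level in the endometrium by day 12, FDPS is still high and COL13A1 at its highest there, and 1 ovary library of day 12 lies below the other 3 in each panel.

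With all libraries, 10 members were called higher on day 12 than on day 18 in both the endometrium and the ovary (background 0.451%), and 6 of these had a symbol, among them COL13A1, SGPP1, CHCHD10, ISOC1 and FDFT1. Without ovary library 1 of day 12 the number was 31 (background 1.77%). With all libraries, these ovarian calls were lost when any 1 other library of the 2 days was left out, in fits that called 0 of all genes tested. COL13A1 (ENSSSCG00000010256), a collagen that spans the cell membrane, was highest in the endometrium on day 12, at 32.5, 42.7 and 61.8 CPM against 9.77, 9.21 and 14.6 CPM on day 9 and 2.88, 5 and 5.31 CPM on day 18 (log2 fold change 3.46 ± 0.77 (SE), adjusted p = 0.00683). On day 15 the second endometrium library was still at 58.7 CPM and the other 3 were at 4.92 to 6.39 CPM. Ovary libraries held 24.2, 65.3, 45.8 and 44 CPM on day 12 and 2.9, 18.7 and 10 CPM on day 18 (log2 fold change 2.50 ± 0.66 (SE), adjusted p = 0.0499), and here the first library of day 12 too was above all of day 18.

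SGPP1 (ENSSSCG00000028558), which removes the phosphate of sphingosine-1-phosphate, was 118, 159 and 86.8 CPM on day 12 and 14.3, 14 and 16.8 CPM on day 18 in the endometrium (log2 fold change 3.06 ± 0.67 (SE), adjusted p = 0.00634). Its ovarian level was 31.8, 117, 102 and 111 CPM on day 12 and 18, 30.8 and 28.2 CPM on day 18 (log2 fold change 2.19 ± 0.44 (SE), adjusted p = 0.0443). In the oviduct SGPP1 kept to 14.6 to 27.2 CPM on all days. CHCHD10 (ENSSSCG00000010073), a mitochondrial protein, and ISOC1 (ENSSSCG00000014258) were called in both tissues with log2 fold changes of 1.70 and 1.23 in the endometrium and 1.55 and 1.57 in the ovary. For ISOC1 the endometrial call was lost without library 2 of day 12 or any library of day 18. COL13A1, SGPP1, CHCHD10 and ISOC1 are described here because of their calls in the endometrium and the ovary, and the direct test against the oviduct uses the same libraries, so its values are a description. The differences were 1.74 for ISOC1 to 4.70 for COL13A1 (endometrium) and 1.83 for CHCHD10 to 3.68 for COL13A1 (ovary).

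Of the 33 identifiers without a symbol, 2 are given here that were chosen after their values were seen. ENSSSCG00000004533 had the highest smaller R of all members: it was 1.52, 1.99 and 2.17 CPM on day 0 and 51, 116 and 38 CPM on day 9 in the endometrium. Ovarian levels were 1.02, 2.31 and 1.37 CPM on day 0 and 49.1, 50.3 and 32.8 CPM on day 9. It rose from day 3 to day 6 in the endometrium (log2 fold change 3.68 ± 0.58 (SE), adjusted p = 0.000476), and in the oviduct it was at 0.347 to 3.78 CPM on all days. The only member called lower on day 12 than on day 18 in the endometrium was ENSSSCG00000010056 (log2 fold change -1.85 ± 0.62 (SE), adjusted p = 0.0411), and it too had risen from day 3 to day 6 (log2 fold change 3.60 ± 0.64 (SE), adjusted p = 0.000951). In the oviduct 5 members had a mean under 1 CPM on all days, so that a change there could hardly be detected at this depth.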

How the data were processed

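Endometrium, ovary and oviduct RNA-seq libraries of the pig oestrous cycle were taken from 1 table of raw counts per Ensembl gene, deposited by the authors without normalisation. By the methods of the study, reads were mapped with TopHat to the pig genome with Ensembl annotation, and the submitters' processing notes name FastQC, featureCounts, Cufflinks, Cuffdiff and edgeR. Whether counting used strand is not given in the sources used here, so reads of overlapping and antisense genes may not be separated, and reads shared by near-identical genes may be split. Of 25322 genes, 3376 had no count in any library, and no row lacked a gene identifier. The 66 columns name tissue, day and a number that differs from the number in the sample titles, so that columns were assigned to groups only.

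The members and gene lists were chosen with earlier results of these data known. CPM shown were scaled to the column total. Tests were edgeR 4.0.16 quasi-likelihood fits (R 4.3.3, TMM, filterByExpr, Benjamini-Hochberg adjustment over all tested genes) of the libraries of a tissue, and for differences between tissues of all 21 groups. SE was derived as the size of the log2 fold change over the root of F. The scripts were tested on simulated data. Alternatives were DESeq2 (version 1.42.0), edgeR with DESeq2 size factors, edgeR without the low-count filter, fits of only the groups compared, a block for the column number (within each day for tests between tissues), and each library left out in turn. Gene symbols came from a table that pairs 11804 of the identifiers. Summaries used Python 3.11.15 with pandas 2.3.3 and matplotlib 3.10.9.

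Named genes were the 12 with the largest smaller R of endometrium and ovary among members with a symbol, at least 10 counts in every day 9 library of both tissues and every day 9 library above every day 0 library, up to 8 members with a symbol called higher on day 12 than on day 18 in both (6 qualified), every member of the gene lists, and the 4 members with the largest change called in the oviduct. Of the 113 members, 103 passed the minimum and the overlap condition, 74 of them with a symbol. These conditions use libraries of the days that chose the members, so a high count is largely fixed by the rule. It is a description and gives no support. Libraries held 8962103 to 13442083 counts. In 74 pairs of libraries of 1 group, 0 were identical, and each pair differed by more than sampling noise. Floors cover counting error only, while each SE comes from its fit and includes the spread between libraries. Sequences of the members were not used here. Some genes that this rule names are not reported here; they remain in the counts and sums.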

Additional observations from a re-analysis of the deposited data

Results flagged for a closer look

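Ovary library 1 of day 12 lay far from the other 3 of its group in both summary levels. Its median over members was 3.83 on the log2(CPM + 1) scale and its summed level of the 8 cholesterol synthesis members was 570.5 CPM, where the others had 5.83 to 5.95 and 7231 to 8215 CPM. The gap to the nearest library was 0.945 and 0.871 of the range, above Dixon's 95% critical value for 4 samples. Chance alone marks about 1 in 20 groups, and 2 of 10 group values tested were marked here, both from this library.

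The day 12 against day 18 change differed between endometrium and oviduct for 13 members, between ovary and oviduct for 41 and between endometrium and ovary for 10. The day 6 against day 3 change differed for 15 members between endometrium and oviduct, and for 10 between endometrium and ovary. These counts are from the difference of differences in the edgeR fit of all groups. The shares over all genes are given with the direct test above.

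Among the named genes, the endometrium minus oviduct difference of day 12 against day 18 was 5.17 for PLA2G3, 4.89 for FDPS, 4.70 for COL13A1, 3.96 for NTRK3, 3.39 for SGPP1, 2.52 for FDFT1, 2.04 for CHCHD10 and 1.74 for ISOC1 on the log2 scale. NTRK3 was lost without endometrium library 2 of day 18, CHCHD10 and FDFT1 without endometrium library 3 of day 12, and ISOC1 without 3 single libraries. COL13A1, SGPP1, CHCHD10 and ISOC1 were named for their calls on these days in the endometrium and ovary. Their day 12 against day 18 differences from the oviduct, here and below, use the same libraries and are a description.

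The ovary minus oviduct difference was 5.99 for FDPS, 5.37 for MSMO1, 4.87 for ACAT2, 4.35 for MVK, 3.93 for FDFT1, 3.68 for COL13A1, 3.62 for PLA2G3, 3.26 for NTRK3, 2.85 for STEAP4, 2.47 for SGPP1, 2.15 for SC5D, 2.03 for ISOC1, 1.83 for CHCHD10 and 1.71 for ATP1B1. ATP1B1 was lost without ovary library 3 of day 18, and NTRK3, STEAP4, PLA2G3 and SC5D were each lost without ovary library 2 or 3 of day 18, among others.

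The endometrium minus ovary difference was -4.03 for STEAP4, -3.22 for MSMO1, -2.76 for ACAT2 and -2.65 for MVK, and the last 3 were lost without endometrium library 1 or 2 of day 12 or library 1 of day 18, among others. For day 6 against day 3, the endometrium minus oviduct difference was 5.19 for CITED1, 4.25 for PAPSS2 and 2.49 for ISOC1, and the endometrium minus ovary difference was 5.49 for MFAP3L, 4.13 for PAPSS2 and 3.06 for MME.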

How the results depend on the processing

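Counts of members called over the libraries left out in turn ranged, for day 12 against day 18, from 21 to 38 in the endometrium, 0 to 79 in the ovary and 15 to 31 in the oviduct. For day 6 against day 3 they ranged from 45 to 58 in the endometrium and from 0 to 0 in the ovary and oviduct, and for day 12 against day 15 from 0 to 43, 0 to 61 and 0 to 10. Between tissues they were 10 to 14 (endometrium minus oviduct), 27 to 63 (ovary minus oviduct) and 3 to 29 (endometrium minus ovary) for day 12 against day 18, and 5 to 16, 0 to 0 and 3 to 9 for day 6 against day 3. The number of members ranged from 103 to 127, and was 199 without the added 1, 174 with TMM and 177 with size factors. DESeq2 called 61 in the ovary for day 12 against day 18, 2 for day 6 against day 3 and 35 for day 12 against day 15, 14 in the endometrium and 8 in the oviduct for day 12 against day 15. In the ovary, day 12 against day 18 gave 7 calls with size factors and 0 with no filter, with only the 2 groups or with the block. Day 12 against day 15 in the endometrium gave 2 with no filter and 0 with only the 2 groups or the block, and the 2 groups gave 2 in the ovary for day 6 against day 3. With only the 4 groups, day 12 against day 18 gave 27, 15 and 1 (endometrium minus oviduct, ovary minus oviduct, endometrium minus ovary). The 1 was higher in the endometrium than in the ovary, where the fit of all groups called 10 lower. With only its 4 groups, day 6 against day 3 gave 33 (endometrium minus oviduct) and 21 (endometrium minus ovary). The last was 6 with no filter. The number of all genes called moved with the setting as well, and the cause of these moves was not tested. Of 82 calls of named genes, 0 reversed and 42 were lost under at least 1 setting. The tissues of a day came from the same gilts, but no source used here ties the column numbers to gilts. Over 63 pairs of 1 number, day and 2 tissues the correlation of deviations was -0.112 to 0.283, above 0.1 in 45, and 109 of 126 comparisons were highest with their own number, a hint from the data only. With the number within each day as a replicate block, the tests between tissues gave 15, 39 and 5 for day 12 against day 18 and 16, 0 and 8 for day 6 against day 3 (endometrium minus oviduct, ovary minus oviduct, endometrium minus ovary).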
